A study of Mus musculus with 8 samples.

Results

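Tetherin (Bst2), the interferon-induced transmembrane proteins Ifitm1, Ifitm2 and Ifitm3, and Rtp4 were followed across the cells of the mouse liver. The 5 genes were taken by their symbols from the 32285 genes listed in each of 8 single-cell libraries. Each library was made from the liver of a single mouse, a female of strain C57BL/6J aged 9 weeks, and no allele was engineered in either group. The Control group held 4 untreated mice (replicates 1 to 4) and the Beta-glucan (BG) group held 4 mice (replicates 5 to 8) given 1.2 mg of the yeast β-glucan odetiglucan intravenously on day 0, and all livers were taken on day 2. CD45+ cells were enriched and a density-gradient fraction of the flow-through was added to recover Kupffer cells (KCs), so the recovered shares of cell types need not be those of the intact liver. The study asked how BG, given systemically, changes liver macrophages and the cells around them, and here the question was in which liver cells these membrane-acting antiviral genes were expressed and in which of them their RNA differed after BG.

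All 5 genes belong to the set that interferons can switch on. Bst2 is a membrane protein anchored at both ends, which holds budding enveloped viruses on the surface of the cell that made them, and plasmacytoid dendritic cells (pDCs) are known for displaying it without stimulation. The Ifitm proteins sit in the plasma membrane and in endosomes and hinder the fusion of entering viruses, and Ifitm3, which acts mainly in endosomes, is the member best known for restricting influenza virus in mice. Rtp4 was first described as a chaperone that brings odorant, taste and opioid receptors to the cell surface, and it also restricts flaviviruses in several mammals. Interferons act through receptors at the cell surface whose signal reaches transcription factors, among them Irf9, that bind GAAA repeats near the start of their target genes.

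The 3 Ifitm members lie together on chromosome 7 of GRCm38 (mm10), within 55934 bases: Ifitm2 at chr7:140954837-140955987 on the minus strand, Ifitm1 at chr7:140967221-140969825 on the plus strand and Ifitm3 at chr7:141009586-141010770 on the minus strand. Bst2 spans chr8:71534255-71537456 on the minus strand and Rtp4 spans chr16:23520291-23614222 on the plus strand. The short start regions of the members are shown because 3 of the 4 that could be matched in RefSeq hold the spaced GAAA repeat, and Ifitm2 and Ifitm3, which were called higher after BG in 0 and in 5 classes, hold the same 10 letters at different places. Each run covers 150 bases before to 30 bases from the RefSeq start (build GRCm38.p6), 5′ to 3′ on the gene's strand, and capitals mark every match to the spaced repeat, GAAA followed after any 2 bases (NN) by GAAA.
Bst2, chr8:71537443-71537622, minus strand: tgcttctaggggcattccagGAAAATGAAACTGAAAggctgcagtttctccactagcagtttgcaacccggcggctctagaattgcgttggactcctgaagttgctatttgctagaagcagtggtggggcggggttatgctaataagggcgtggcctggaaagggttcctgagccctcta
Ifitm1, chr7:140967926-140968105, plus strand: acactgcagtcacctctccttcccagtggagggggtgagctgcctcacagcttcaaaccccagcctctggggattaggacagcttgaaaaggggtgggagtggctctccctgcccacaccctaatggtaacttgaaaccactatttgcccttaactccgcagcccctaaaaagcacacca
Ifitm2, chr7:140955932-140956111, minus strand: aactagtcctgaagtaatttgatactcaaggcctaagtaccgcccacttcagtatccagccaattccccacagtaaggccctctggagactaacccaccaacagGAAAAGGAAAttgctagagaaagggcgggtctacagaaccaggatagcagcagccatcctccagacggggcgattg
Ifitm3, chr7:141010715-141010894, minus strand: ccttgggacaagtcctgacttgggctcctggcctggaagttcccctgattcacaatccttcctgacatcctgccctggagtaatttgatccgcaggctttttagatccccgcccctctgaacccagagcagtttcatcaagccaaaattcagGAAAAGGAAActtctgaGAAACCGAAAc

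Of 32851 RefSeq start regions of this length, 1.90% held the spaced GAAA repeat on either strand. In Bst2 a pair of overlapping matches ran from base -130 to -121 and from base -124 to -115, counted from the RefSeq start. Ifitm2 held a single match, GAAAAGGAAA, from base -46 to -37. Ifitm3 held the same 10 letters from base 3 to 12, just after its start, and a further match, GAAACCGAAA, from base 20 to 29. The further motif TTCNNNGAA, which was found in 4.94% of the start regions, matched in Bst2 from base -136 to -128, where it overlaps the first GAAA repeat, and in Ifitm3 from base 14 to 22. A match describes these letters only. The Ifitm1 window, taken from another start than that of its longest transcript, held neither motif. Rtp4 is named here without its start region.

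After the limits on cells (200 to 2500 genes detected and at most 30% of UMIs, the unique molecular identifiers that count RNA molecules, from mitochondrial genes), 48465 barcodes were kept, 4330 to 7790 per library. Marker genes placed 31292 of them (64.6%) in 18 classes, of which 13 had at least 10 cells in at least 3 mice of each group and were tested. Clec4f, Cd5l and Vsig4 were among the leading genes in KCs, Siglech in pDCs and Ptprb in endothelial cells. These are markers that set the gates, so their place was fixed by the gating and does not test the names. Leading genes outside the marker lists included Fcna, C1qc and C1qa in KCs, Smim5 and Cd300c in pDCs, and F8 and Ednrb in endothelial cells. The Cxcr6 T class is named by its rule since it can hold natural killer T cells and other T cells. The library of BG replicate 5 stood apart, with 27873 barcodes, a median of 34 genes per barcode and 66.6% mitochondrial UMIs, and kept 4330 cells. Only 307 kept barcodes appeared in more than 1 library. KCs numbered 277, and control replicate 1, with 5 of them, did not enter the KC fit, nor that of cholangiocytes, so both compare 3 control with 4 BG mice. Levels are given as CPM, the UMI counts of a gene in a class scaled to a common class total with TMM factors, and they are compared within a gene and not between genes.

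In untreated mice each gene had its own place in the liver. Bst2 was highest in pDCs, at 3420 ± 210 CPM (SD, n = 4), and endothelial cells came next at 827 ± 79.3 CPM. The lowest pDC value, 3283 CPM, lay above the highest endothelial value of 914 CPM. KCs followed at 394 ± 51.7 CPM (n = 3) and monocytes/BMDMs, the class of monocytes and bone marrow-derived macrophages, at 344 ± 108 CPM (n = 4), and the ranges of both classes overlapped. Of the 13 tested classes, cDC1s, the conventional type 1 dendritic cells, came next at 156 ± 44.4 CPM. T cells, NK/ILC1 cells and cholangiocytes lay between 79.7 and 120 CPM with overlapping neighbours, B cells at 53.9 ± 11.9 CPM and neutrophils at 27.6 ± 18.5 CPM. pDCs supplied 31.9% of all Bst2 UMIs of the control livers from 3.1% of the UMIs, and endothelial cells supplied 17.3%.

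Ifitm3 had its highest control level in monocytes/BMDMs, at 4051 ± 513 CPM, and was at 1290 ± 125 CPM in endothelial cells and at 1246 ± 144 CPM in KCs, which overlapped. Ifitm2 was led by endothelial cells (2665 ± 221 CPM), with neutrophils at 1654 ± 556 CPM and monocytes/BMDMs at 1107 ± 145 CPM. Both genes were low in lymphocytes, where the control means ran from 22.4 to 97.7 CPM for Ifitm3 and from 19.5 to 71.0 CPM for Ifitm2. Across the 13 classes the control levels of Ifitm2 and Ifitm3, as log2(CPM + 1), had a Pearson r of 0.91, which describes 13 classes of the same mice. Endothelial cells held 46.6% of the Ifitm2 UMIs and 31.2% of the Ifitm3 UMIs in the control livers.

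Ifitm1 was high in few classes. It was the leading gene of the basophil class by fold, at a median of 4822 CPM over the 4 control libraries (3257 to 6525 CPM, 41 cells in all), and it was at 657 ± 363 CPM in neutrophils. In stellate cells and fibroblasts the 4 control libraries ran from 80.4 to 1129 CPM, from 20 cells in all. No Ifitm1 UMI was found in 1093 pDCs, 190 cDC1s, 259 cholangiocytes or 279 hepatocytes of both groups, which allows a share of cells with a UMI of up to 0.274%, 1.58%, 1.16% and 1.08% (3 counts of the total, for counting error only). In B, T and NK/ILC1 cells its control means were 0.42 to 2.24 CPM. Rtp4 was highest in KCs, at 138 ± 36.0 CPM, followed by neutrophils (87.0 ± 13.5 CPM), endothelial cells (77.1 ± 5.0 CPM) and monocytes/BMDMs (50.03 ± 16.0 CPM). It was lowest in pDCs and cDC1s, at 0.71 and 1.70 CPM, so pDCs had the highest mean Bst2 and the lowest mean Rtp4 of the tested classes.

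**Figure D1:**
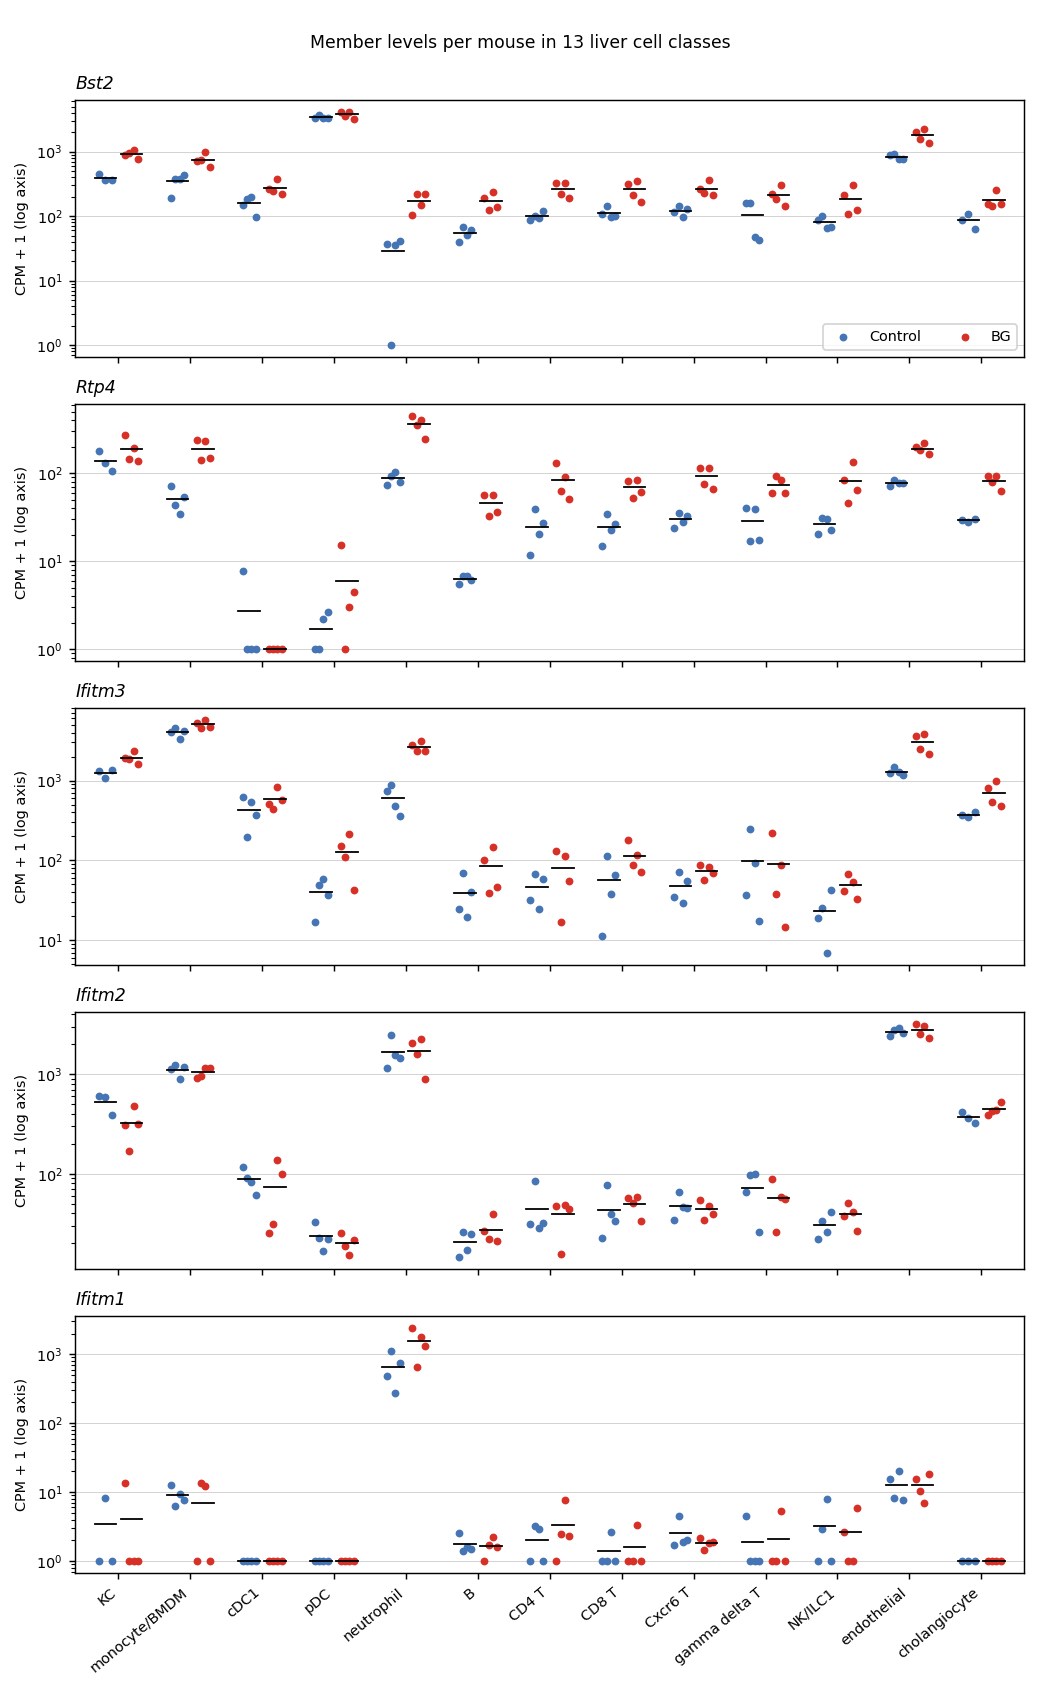
Level of each of the 5 genes per mouse (CPM + 1, log axis) in the 13 tested classes, with control mice in blue and BG mice in red; black lines are group means. Bst2 in pDCs sits between 3245 and 4175 CPM in all 8 mice, while in KCs the 4 BG mice (760 to 1066 CPM) lie above the 3 control mice (363 to 454 CPM).

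**Figure D2:**
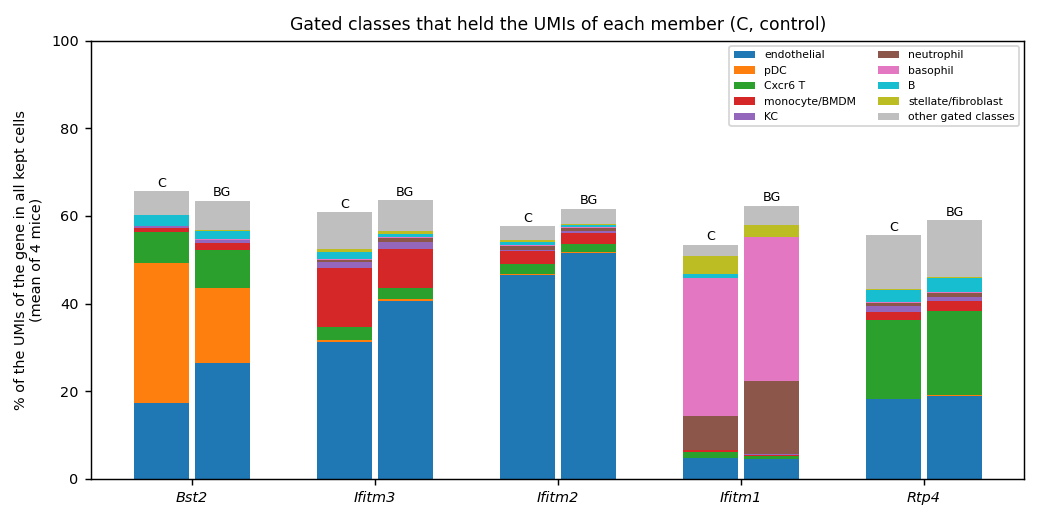
Share of each gene's UMIs held by the gated classes, as the mean of 4 mice, for control (C) and BG; the space above a bar is the UMIs in kept cells outside the 18 classes. pDCs held 31.9% of the Bst2 UMIs in control and 17% in BG livers, and endothelial cells 17.3% and 26.4%. Of all UMIs, endothelial cells held 6.91% in control and 9.66% in BG livers.

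After BG, Bst2 was called higher in most of the tested liver cell classes but not in pDCs, which expressed it most. Genes were called where the adjusted p of edgeR's quasi-likelihood test, over every gene tested in the class, was under 0.05 with a log2 fold change beyond 0.5. Bst2 was tested in 12 classes and called higher in 9 of them, by 1.12 to 1.66 on the log2 scale. Its log2 change was above 0 in all 12. Of all genes tested in the same class, the share called higher was 0.841% in KCs, 2.49% in monocytes/BMDMs, 1.33% in B cells, 0.957% in CD4 T cells, 0.869% in CD8 T cells, 2.44% in Cxcr6 T cells, 1.34% in NK/ILC1 cells, 1.16% in endothelial cells and 0.336% in cholangiocytes. In the classes where Bst2 was not called it was 0.254% in cDC1s, 0.624% in pDCs and 0.828% in gamma delta T cells, and it was 1.98% in neutrophils, where Bst2 was under the filter on low counts. Of the 11565 genes tested in any class, 4 were called higher in more classes than Bst2 (Isg15 and Ifi27l2a in 11, Irf7 and Lgals3bp in 10).

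In KCs, Bst2 was at 454, 366 and 363 CPM in control replicates 2 to 4 and at 893, 957, 1066 and 760 CPM in BG replicates 5 to 8. Every BG mouse lay above every control mouse, and the change was 1.25 ± 0.23 (log2, SE) with an adjusted p of 0.00449. In monocytes/BMDMs the control mice were at 189, 375, 371 and 439 CPM and the BG mice at 707, 748, 971 and 577 CPM, a rise of 1.18 ± 0.20 (adjusted p = 0.000841). Set against KCs, the monocyte/BMDM response differed by a log2 of 0.005 ± 0.27 in a fit of all classes and by -0.29 ± 0.28 in a fit of these classes alone, neither past the threshold (adjusted p = 1.0 and 0.892).

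Of the gated classes, endothelial cells held the most Bst2 UMIs after BG (26.4%), and their share of all UMIs was 6.91% in control and 9.66% in BG livers. They were at 875, 914, 766 and 754 CPM in control mice and at 2046, 1577, 2218 and 1363 CPM in BG mice (1.12 ± 0.13, adjusted p = 5.58e-05). In B cells the values were 38.9, 65.9, 50.4 and 60.4 CPM against 190, 124, 232 and 138 CPM, the largest fitted rise of Bst2 at 1.66 ± 0.18 (adjusted p = 3.64e-06). The groups did not overlap in either class. CD4 T, CD8 T, Cxcr6 T and NK/ILC1 cells rose by 1.41 ± 0.17, 1.23 ± 0.18, 1.14 ± 0.15 and 1.21 ± 0.22, again with no overlap between the groups. The summed markers of monocytes/BMDMs (8 of 8 detected after BG) were also higher without overlap in CD4 T, CD8 T, Cxcr6 T and NK/ILC1 cells. They were at 268 to 347 and 427 to 763 CPM in CD4 T cells, where Chil3 and Vcan were at 0 in control. In CD8 T cells they were at 307 to 489 and 517 to 768 CPM, and in Cxcr6 T cells at 472 to 526 and 607 to 849 CPM. In NK/ILC1 cells they were at 268 to 340 and 358 to 430 CPM. In gamma delta T cells the groups overlapped (290 to 627 and 238 to 873 CPM). They also overlapped in B cells (31.6 to 65.9 and 45.9 to 206 CPM), where the means were 50.1 and 151 CPM. The marker list includes Ly6c2, itself called higher after BG in 7 of the 10 classes where it was tested. The part of these markers in the rises was not tested. In cholangiocytes the rise of 1.21 ± 0.27 was at the edge of the threshold (adjusted p = 0.0496, 3 against 4 mice), and the call was lost when any of control replicates 2 and 4 or BG replicates 5, 7 and 8 was left out.

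pDCs were the exception. Their control mice were at 3358, 3731, 3310 and 3283 CPM and their BG mice at 4175, 3614, 4039 and 3245 CPM. The ranges overlapped and the change of 0.13 ± 0.09 was not called (adjusted p = 0.759). The share of Bst2 UMIs held by pDCs was 17% in BG livers against 31.9% in control livers, while pDCs held 2.80% of all UMIs in BG and 3.1% in control livers. Pooled over the cells of a group and not scaled for depth, pDCs with Bst2 held a mean of 15.5 UMIs after BG and 13.5 in control. In endothelial cells with Bst2 the mean was 5.11 after BG and 2.62 in control. The median UMIs per cell of a library were 3459 to 5256.5 in control and 3175 to 4582.5 in BG pDCs. In endothelial cells they were 1955.5 to 2650.5 and 2173 to 2778.5. cDC1s (0.83 ± 0.23, adjusted p = 0.198) and gamma delta T cells (0.90 ± 0.30, adjusted p = 0.199) were not called, and in cDC1s the groups did not overlap. In neutrophils 5 Bst2 UMIs in control mice and 26 in BG mice gave 27.6 ± 18.5 and 173 ± 57.2 CPM without overlap and without a test, since the gene was under the filter there.

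**Figure D3:**
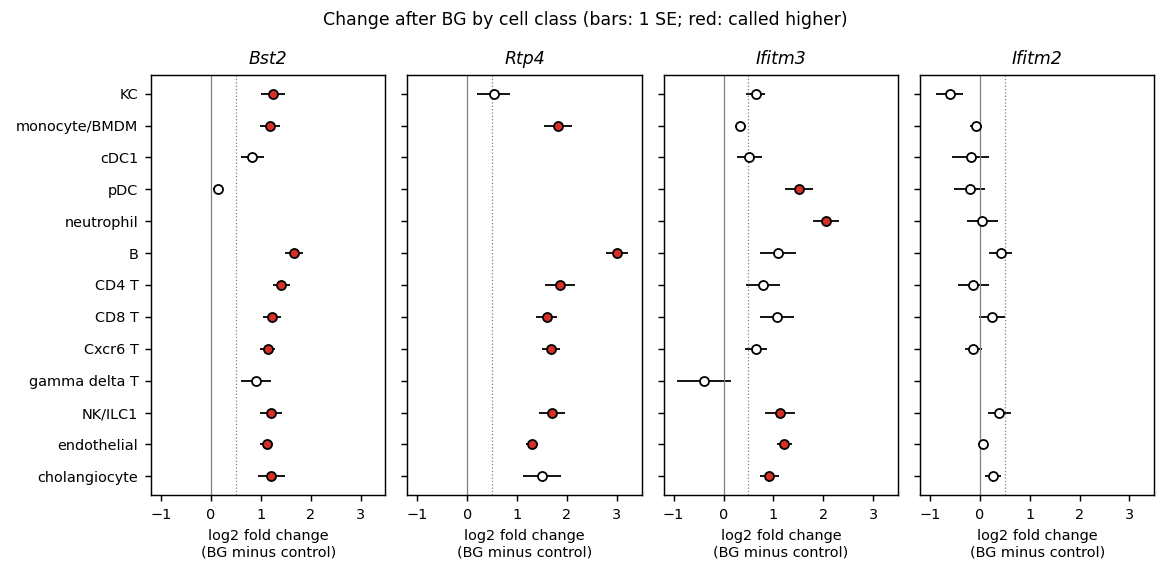
Log2 fold change (BG minus control) of 4 genes in each class where the gene was tested, with bars of 1 SE; red points were called higher, the solid line is 0 and the dotted line is the 0.5 limit. Bst2 lies at 1.12 to 1.66 in the 9 called classes, at 0.83 in cDC1s, 0.90 in gamma delta T cells and 0.13 in pDCs. Rtp4 reaches 3.0 in B cells, and no Ifitm2 point is called.

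Whether the response differed between classes was tested in a single fit of all classes with the mouse as a block. Of 11172 genes, 1.78% had a response that differed between classes at an adjusted p under 0.05. Bst2 (adjusted p = 2.13e-12) and Rtp4 (adjusted p = 0.000368) were among them, Ifitm3 was not (adjusted p = 0.0656), and neither were Ifitm2 (0.839) and Ifitm1 (0.848). Set against KCs, the Bst2 response of pDCs was lower by a log2 difference of -1.08 ± 0.23 (adjusted p = 0.0251), and no other class passed this test for Bst2. With pDCs and KCs alone in the fit the difference was -1.12 ± 0.23 (adjusted p = 0.00342). When 1 mouse was left out, the contrast stayed between -1.14 and -0.97, but its adjusted p rose above 0.05 without control replicate 2, 3 or 4 or without BG replicate 5, 7 or 8, up to 0.371, while the test of any difference between classes kept an adjusted p of at most 0.000116.

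Rtp4 was tested in 9 classes and called higher in 7 of them, by 1.30 to 3.0 on the log2 scale. Its log2 change was above 0 in all 9. B cells, which held little Rtp4 without BG, were at 4.6, 5.8, 5.7 and 5.1 CPM in control mice and at 55.7, 31.6, 55.6 and 35.2 CPM in BG mice. The change of 3.0 ± 0.23 (adjusted p = 9.23e-08) was far outside the spread between mice. Monocytes/BMDMs went from 70.8, 42.3, 33.8 and 53.2 CPM to 241, 141, 230 and 147 CPM (1.83 ± 0.28, adjusted p = 0.000342), and endothelial cells from 71.4, 83.6, 76.6 and 77.05 CPM to 196, 181, 221 and 163 CPM (1.30 ± 0.11, adjusted p = 7.35e-06). CD4 T, CD8 T, Cxcr6 T and NK/ILC1 cells rose by 1.86 ± 0.30, 1.59 ± 0.21, 1.68 ± 0.18 and 1.70 ± 0.25. Monocyte/BMDM markers were higher in these T cell and NK/ILC1 classes, and on average in B cells with overlap, as given for Bst2. The mean Rtp4 level was higher in monocytes/BMDMs than in each of these classes in both groups. The part of these markers in the Rtp4 rises was not tested. The 7 calls held in every fit that left out a library.

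KCs, the class with the highest control level of Rtp4, were not called: control replicates 2 to 4 were at 176, 132 and 105 CPM and the BG mice at 273, 144, 195 and 136 CPM, which overlapped (0.53 ± 0.33, adjusted p = 0.532). These levels rest on 34 Rtp4 UMIs in control and 66 in BG mice. In the joint fit the Rtp4 response of B cells exceeded that of KCs by 2.41 ± 0.42 (adjusted p = 0.000231), and by 2.46 ± 0.50 with these classes alone (adjusted p = 0.000705). Without control replicate 3 the difference was 2.32 with an adjusted p of 0.120. No other class passed this test for Rtp4, and monocytes/BMDMs, at 1.23 ± 0.44 above KCs, had an adjusted p of 0.703. In neutrophils, cholangiocytes and gamma delta T cells the BG mice lay above the control mice without overlap, but Rtp4 was under the filter in neutrophils and gamma delta T cells and was not called in cholangiocytes (1.501 ± 0.38, adjusted p = 0.136). In neutrophils 14 UMIs in control and 54 in BG mice gave 87.0 ± 13.5 and 364 ± 90.2 CPM. cDC1s and pDCs stayed near the floor: in cDC1s, no Rtp4 UMI was found in 76 cells of BG mice, which allows a share of up to 3.95%, and pDCs held 2 UMIs in control and 6 in BG mice. cDC2s, conventional type 2 dendritic cells with too few cells for a test, held 8 UMIs in control and 12 in BG libraries, at medians of 44.1 and 59.9 CPM.

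Ifitm3 was tested in 13 classes and called higher in 5 of them, neutrophils, pDCs, endothelial cells, NK/ILC1 cells and cholangiocytes. Its log2 change was above 0 in 12 of the 13. In neutrophils the control mice were at 742, 868, 481 and 356 CPM and the BG mice at 2751, 2369, 3094 and 2349 CPM (2.06 ± 0.27, adjusted p = 0.00385), from 11 to 37 cells per mouse. In endothelial cells the control mice were at 1242, 1459, 1295 and 1163 CPM and the BG mice at 3604, 2459, 3823 and 2122 CPM (1.22 ± 0.15, adjusted p = 9.47e-05). Both changes exceeded the spread between mice, with no overlap, and both calls held in every fit without 1 library. In the neutrophil class, monocyte/BMDM markers summed to 146 to 3397 CPM in control and to 787 to 4614 CPM in BG mice, with overlap. Markers of red blood cells reached up to 44712 CPM there in control and 32898 CPM in BG mice. The part of these markers in the neutrophil result was not tested. The macrophage classes were not called. KCs were at 1311, 1082 and 1346 CPM in control and at 1910, 1866, 2358 and 1634 CPM in BG mice, without overlap (0.64 ± 0.20, adjusted p = 0.117). Monocytes/BMDMs were at 3359 to 4596 and 4561 to 5809 CPM (0.33 ± 0.11, adjusted p = 0.124). Set against KCs in the fit of all classes, the Ifitm3 response differed by 0.54 ± 0.31 in endothelial cells and 1.24 ± 0.44 in neutrophils. Neither difference passed (adjusted p = 0.800 and 0.936). When KC barcodes that also carry markers of other lineages were let in, a choice made after the data were seen, the KC change was 0.76 with an adjusted p of 0.0334.

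The other calls of Ifitm3 were less firm. In pDCs it went from 15.8, 47.6, 57.4 and 35.7 CPM to 150, 110, 211 and 41.5 CPM, with overlap (1.51 ± 0.29, adjusted p = 0.0015), and the adjusted p was 0.0589 without BG replicate 7. NK/ILC1 cells (22.4 ± 14.7 against 47.9 ± 15.4 CPM, adjusted p = 0.0388) lost the call in 6 of the 8 fits that left out a library, all but those without control replicate 4 or BG replicate 8. In cholangiocytes (375 ± 31.5 against 704 ± 236 CPM, adjusted p = 0.028) it was lost without control replicate 2, 3 or 4 or BG replicate 5 or 7. NK/ILC1 cells had the lowest mean Ifitm3 of the 13 classes in both groups. Markers of endothelial cells, all 9 of 9 detected, summed to 39.2 to 60.2 CPM in the NK/ILC1 cells of control mice and to 56.4 to 97.3 CPM in those of BG mice, and to 156 to 238 and 208 to 243 CPM in pDCs, against a mean of 16942 CPM in control endothelial cells. Monocyte markers summed to 268 to 340 and 358 to 430 CPM in NK/ILC1 cells (8 of 8 detected) and to 1724 to 1961 and 3132 to 4143 CPM in pDCs, where F13a1 was at 0 after BG. Ly6c2, one of the monocyte markers, was itself called higher after BG in 7 of the 10 classes where it was tested. The part of the endothelial and monocyte markers in these results was not tested.

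Ifitm2 was called in none of 12 classes, and its log2 changes ran from -0.61 (KCs, adjusted p = 0.328) to 0.42 (B cells, adjusted p = 0.642). At an unadjusted p under 0.05, edgeR gave 1 of the 12, the lower level in KCs, and DESeq2 called none. In endothelial cells, with 33315 Ifitm2 UMIs behind the values, control mice were at 2403, 2764, 2912 and 2582 CPM and BG mice at 3228, 2526, 3064 and 2336 CPM (0.06 ± 0.11, adjusted p = 0.973). In KCs they were at 605, 585 and 386 CPM in control replicates 2 to 4 and at 310, 167, 480 and 318 CPM in BG mice.

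Since both genes were read in the same cells, their UMI ratio does not depend on how the libraries were scaled. In endothelial cells there were 0.445 to 0.528 Ifitm3 UMIs per Ifitm2 UMI in control mice and 0.908 to 1.25 in BG mice. In neutrophils the ratio was 0.243 to 0.642 in control and 1.34 to 2.65 in BG mice, below 1 in every control mouse and above 1 in every BG mouse. In KCs it was 1.85 to 3.48 in control and 4.91 to 11.1 in BG mice, and in monocytes/BMDMs 3.55 to 3.72 and 4.04 to 5.79. The mean log2 ratio was higher after BG in all 13 classes, and the groups did not overlap in 6 of them (KCs, monocytes/BMDMs, neutrophils, Cxcr6 T cells, NK/ILC1 cells and endothelial cells). Each of these 6 had p = 0.0286 in a two-sided exact permutation test over mice, the smallest that 4 against 4 mice allow (3 against 4 in KCs), and an adjusted p of 0.0619 over the 13 classes, so none passed after adjustment. This ratio was chosen after the levels had been seen, and it shows unequal change of the 2 genes only. The 13 classes come from the same mice, and no such count was made for other pairs of genes. The last 500 transcript bases of Ifitm2 and Ifitm3, where 3' libraries read, share 4.44% of their 50-base words, and Ifitm1 and Ifitm3 share 3.33%. Ifitm1 and Ifitm2 share none. Shared words do not tell the genes apart, and how reads from these stretches were counted was not tested.

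**Figure D4:**
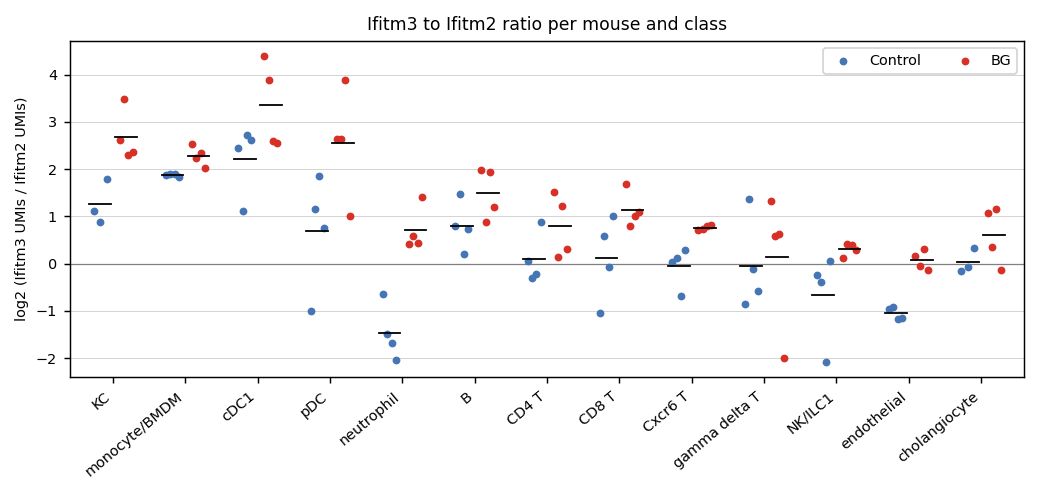
Log2 ratio of Ifitm3 to Ifitm2 UMIs per mouse (control blue, BG red, black lines group means) in the 13 tested classes; a value of 0 means equal UMIs. Endothelial cells lie below 0 in all control mice and near 0 in BG mice, and neutrophils cross from below to above 0.

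Ifitm1 could be tested in neutrophils and endothelial cells only and was called in neither. In neutrophils it was at 486, 1116, 275 and 752 CPM in control and at 2438, 658, 1778 and 1308 CPM in BG mice (1.26 ± 0.42, adjusted p = 0.332), with overlapping ranges. In endothelial cells it was near the floor, at 11.9 CPM in both groups (-0.15 ± 0.37, adjusted p = 0.989). In the 87 basophils, too few per mouse for a test, the control libraries ran from 3257 to 6525 CPM and the BG libraries from 3836 to 4952 CPM. Beyond the 13 classes, Ifitm3 was at 1990 to 2882 CPM in the nonclassical monocytes of control and at 3393 to 4757 CPM in those of BG libraries, without overlap, from 36 and 56 cells. Monocyte/BMDM markers summed to 1183 to 2742 CPM in this class in control and to 2945 to 4039 CPM in BG libraries. Among them is Ly6c2, called higher after BG in 7 of the 10 classes where it was tested. Of the cells of this class, 27.2% lay at the limit of the gate. The part of the markers and of these cells in the Ifitm3 levels was not tested. Bst2 in the same cells was at 125 to 191 and 186 to 449 CPM, which overlapped.

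The share of cells holding a UMI was taken after each cell was thinned to 1500 UMIs, leaving out shallower cells, and compared over mice by a two-sided exact permutation test. Over the 65 pairs of a gene and a class, the share was higher in every BG mouse than in every control mouse in 26, of 62 with a UMI in the class. Over all genes the same held for 1.67% of the gene and class pairs with a UMI and for 2.88% of those that passed the filter on low counts. The smallest p the test allows (0.0286 with 4 mice per group) became 0.0774 after adjustment, so no pair passed. Without thinning the groups were apart in 28 pairs. Bst2 was found in 42.1% of KCs of control mice and in 70.04% of KCs of BG mice (55.3% and 76.8% without thinning), and in 69.2% and 88.9% of endothelial cells. In B cells it was found in 6.70% and 19.1%. In pDCs nearly every cell held Bst2 in both groups (98.5% and 99.0%), so a share could not have shown a rise there. Rtp4 was found in 0.704% of B cells of control mice and in 6.03% of those of BG mice, against 0.166% and 0% in cDC1s and 0.105% and 0.551% in pDCs (without thinning, 0.995% and 8.20% in B cells). In endothelial cells the Rtp4 shares were 11% and 24.8%. Ifitm3 was found in 80.8% and 95.9% of endothelial cells and in 2.05% and 5.57% of B cells, close to the 1.84% and 3.69% of NK/ILC1 cells, the lowest class.

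**Figure D5:**
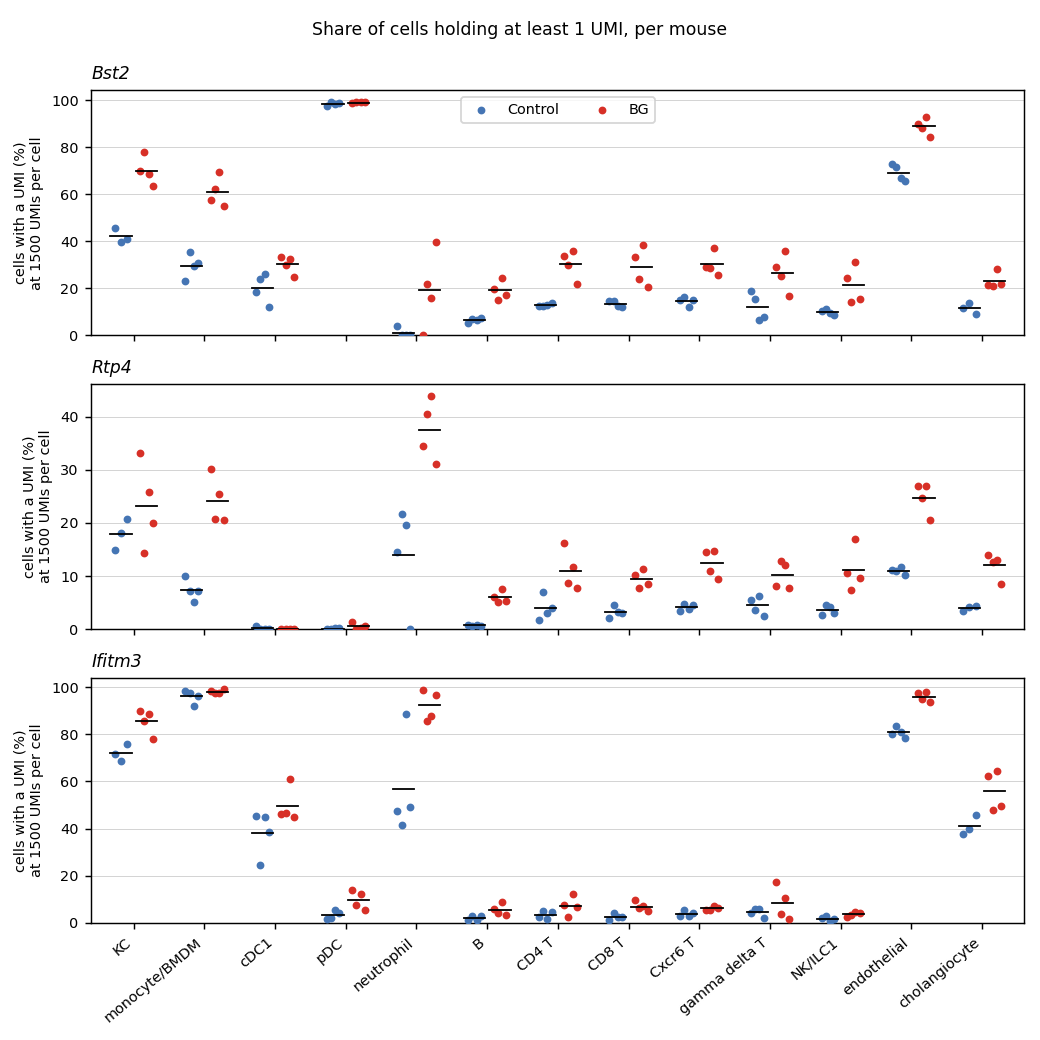
Percent of cells per mouse with at least 1 UMI of Bst2, Rtp4 or Ifitm3 after thinning to 1500 UMIs (control blue, BG red, black lines group means). Bst2 is near 99% in pDCs of both groups and goes from 42.1% to 70.04% in KCs; neutrophil points rest on 3 to 23 cells per mouse.

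The rises were not equal among the BG mice. Of the 13 classes, BG replicate 7 had the highest Bst2 in 10 and the highest Ifitm3 in 8, and BG replicate 5 had the highest Rtp4 in 8. BG replicate 8 was lowest in Bst2 in 9 classes, in Rtp4 in 6 and in Ifitm3 in 8. All classes of a mouse came from a single library, so mouse and library cannot be told apart. Without BG replicate 5, the library that stood apart, 18 of the 21 calls remained, and those lost were Bst2 in cholangiocytes and Ifitm3 in cholangiocytes and NK/ILC1 cells. The 21 calls of a gene in a class were 9 for Bst2, 7 for Rtp4 and 5 for Ifitm3 among 48 tests, and no gene of the 5 was called lower in any class.

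Other genes of the same defence moved in part. Among 20 further restriction factors, of which 18 were listed in the files, 31 of 148 tests in a class were called higher and none lower. Over all genes tested in a class, 0.254% to 2.49% were called higher. The list's median log2 change ran from 0.09 (gamma delta T cells) to 0.56 (monocytes/BMDMs) in the 12 classes other than neutrophils, where it was 1.85 over 3 genes. The medians over all genes tested were -0.02 to 0.01. Trim30a, an interferon-induced regulator of inflammatory signalling, was called in 8 of 11 classes, Rsad2 (viperin) in 7 of 8, Eif2ak2, the kinase PKR that senses double-stranded RNA, in 6 of 8, and the exonuclease Isg20 in 5 of 7. Ly6e, a membrane-anchored factor against coronaviruses, was called in 3 of 13, among them neutrophils (330 to 1155 CPM, 1.85 ± 0.31, adjusted p = 0.00825). Shisa5 in pDCs and Trim12a in endothelial cells made 1 call each. Samhd1 and Serinc3 were tested in 12 classes and Apobec3 in 11, and none of them was called.

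Of 15 genes of interferon signalling, Irf7, the transcription factor that amplifies interferon production, was called higher in 10 of 11 classes, by 1.11 to 2.26, Irf9 in 5 of 10, Stat2 in 4 of 10 and Usp18, a brake on the receptor, in 3 of 6. In pDCs, where Bst2 was not called, Irf7 went from 166 to 427 CPM (1.34 ± 0.14, adjusted p = 9.34e-09) and Trim30a from 233 to 405 CPM. In B cells Rsad2 went from 2.12 to 21.5 CPM (3.25 ± 0.28), beside the rise of Rtp4. The receptor genes Ifnar1, Ifnar2, Ifngr1 and Ifngr2 and the kinase genes Jak1, Jak2 and Tyk2 were called in no class. Of the other Ifitm and Rtp genes, Ifitm6 was tested in 3 classes and Ifitm10 in 4, and Ifitm10 was lower in Cxcr6 T cells (31.0 to 20.6 CPM, -0.61 ± 0.14, adjusted p = 0.0159), a call that was lost without control replicate 1, with a mitochondrial limit of 10% and under both stricter gates. None of 6 genes whose products act with these proteins in human cells, among them Zmpste24, which binds IFITM proteins, and Vapa, was called.

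The genes whose control levels followed those of a member most closely over the 13 classes were Cd47, Uso1 and Selenot for Bst2 (Pearson r 0.88 to 0.89), Nfe2l2, Mt1 and Ifitm3 for Ifitm2 (0.91 to 0.92), Mt1, Ifitm2 and Dleu2 for Ifitm3 (0.90 to 0.93), Ndel1, N4bp1 and Nfkbia for Ifitm1 (0.90 to 0.92) and Xdh, Ddx60 and Dusp6 for Rtp4 (0.91 to 0.95). They were the best of 4958 genes in each case. Bst2 had an r of -0.26 with Rtp4 and of 0.19 with Ifitm3.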

How the data were processed

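Gene-by-barcode tables from 8 livers (4 Control, 4 BG) were used. Per the file headers and the study's methods, the authors made the deposited UMI counts with Cell Ranger 6.1.2 from 10x 3' libraries aligned to mm10 with introns included, and they are not normalized. Barcodes with 200 to 2500 genes and at most 30% mitochondrial UMIs were kept. Classes were set by counts of marker genes per cell, with limits on markers of other lineages in place of a doublet caller. The gate thresholds were set after marker profiles had been seen and before any group was tested. The members and lists were chosen with earlier results of these data known.

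UMI counts were summed per mouse and class, for mice with at least 10 cells and classes with at least 3 mice per group, and tested with edgeR 4.0.16 (quasi-likelihood, TMM, filterByExpr, R 4.3.3), with Benjamini-Hochberg adjustment over every gene tested in the class. Every adjusted p of a fold change or of a difference between classes comes from this tool. A call needed an adjusted p under 0.05 and a log2 change beyond 0.5 in size. Differences between classes were fitted in a single table with the mouse as a block. Shares and ratios were compared over mice with two-sided exact permutation tests. Fits were tested on simulated data, where 67.5% of the changed genes were recovered in KCs, 88.8% in B cells and 91.4% in Cxcr6 T cells. Library totals were 39612380 to 60654583 UMIs, and 19 to 59 KCs per mouse entered the KC fit. Named genes were the 5 members in every class, up to 6 genes per list called in the most classes with any called the opposite way, and the 3 genes most like each member in control levels (log2 with a pseudocount of 1). Genes called in no class and Shisa5 were named after their values were seen. Alternatives were RLE factors, no filter, DESeq2 1.42.0, other cell limits, stricter gates and leaving out each mouse. Start regions came from RefSeq (GRCm38.p6), for 4 of 5 members, and gene positions from GENCODE. Ifitm2 overlaps Gm45717 and Rtp4 overlaps Gm45338 on the same strand.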

Additional observations from a re-analysis of the deposited data

Results flagged for a closer look

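In 97 groups of 4 mice, 6 had a mouse far from the other 3 by Dixon's criterion, and chance flags about 1 in 20 groups. Bst2 in pDCs was at 3731 CPM in control replicate 2, against 3283 to 3358 CPM in the others. Bst2 in cholangiocytes was at 249 CPM in BG replicate 7, against 143 to 155 CPM. Ifitm2 in CD4 T cells was at 83.2 CPM in control replicate 2 (others 27.4 to 31.3 CPM) and at 14.6 CPM in BG replicate 6 (others 43.6 to 47.9 CPM). Ifitm1 was at 1.60 CPM in the B cells of control replicate 1 (others 0.412 to 0.603 CPM) and at 3.53 CPM in the Cxcr6 T cells of control replicate 2 (others 0.725 to 1.02 CPM), both from few UMIs.

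The response to BG differed between classes for Bst2 (adjusted p = 2.13e-12, edgeR) and Rtp4 (adjusted p = 0.000368). The single contrasts with KCs that passed were Bst2 in pDCs, lower by a log2 difference of -1.08, and Rtp4 in B cells, higher by 2.41.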

How the results depend on the processing

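Of the 21 calls, 17 were kept in every fit without 1 mouse and 13 under every alternative that tested them. The number of calls was 9 with a mitochondrial limit of 10%, which left 7 classes and 20 tests, and 16 to 26 under RLE factors, DESeq2, no filter, a limit of 6000 genes or 1 more own marker. Without any marker of another lineage it was 14 in 7 classes. Leaving out 1 mouse gave 17 to 21 calls. Without 1 mouse, the adjusted p of any Ifitm3 difference between classes ran from 0.00204 to 0.509 and passed without control replicate 1 or 2, Bst2 in pDCs minus KCs ran from -1.14 to -0.97, and Rtp4 in B cells minus KCs from 2.32 to 2.52. Signs turned only where no call was made. Ifitm2 changed by 0.15 (mitochondrial limit 10%) and 0.043 (1 more own marker) in monocytes/BMDMs and by 0.19 in cDC1s (6000 genes), and Ifitm3 by -0.32 in B cells (mitochondrial limit 10%) and 0.85 in gamma delta T cells (6000 genes). Without 1 mouse, Ifitm2 ran from -0.71 to 0.11 in cDC1s, -0.13 to 0.27 in neutrophils, -0.32 to 0.34 in CD4 T, -0.0096 to 0.66 in CD8 T, -0.29 to 0.059 in Cxcr6 T and -0.013 to 0.14 in endothelial cells, Ifitm3 from -0.89 to 0.54 in gamma delta T cells and Ifitm1 from -0.43 to 0.25 in endothelial cells. The cause was not tested. No paired analysis was made, because the groups held different mice (control 1 to 4, BG 5 to 8) and the labels give no pairing between them.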
